A study of Mus musculus with 6 samples.

Results

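The genes described here carry glucose through glycolysis, the pentose phosphate pathway, glycogen and the entry of pyruvate into mitochondria, and were measured in mouse lung endothelial cells with and without HIF-2α under low oxygen. The list held 34 genes. A gene was measured by the probe sets whose platform annotation named it alone, and the probe set with the highest mean over the 6 arrays stood for it. By this rule 31 of the 34 had a probe set, of 18194 genes with one, and Gpi1, Eno1 and G6pdx were not analysed here. Another 4 of the 31 (Slc2a3, Aldoc, Eno2 and Pdk3) lay below the filter on low values, so that 27 were tested.

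All 6 arrays came from cells kept at 0.5% oxygen for 16 h, with 3 control arrays and 3 arrays of cells labelled as lacking HIF-2α, the oxygen-regulated transcription factor encoded by Epas1. The labels state that the cells came from mouse lung, were selected repeatedly with endothelial markers and were characterised by flow cytometry. The knockout cells carried VE-Cadherin-Cre and HIF-2a floxed/floxed, so that deletion is driven in endothelial cells. The labels describe the controls in different ways, as VE-Cadherin-Cre with HIF-2a floxed/WT, as Hif-2a floxed/floxed and as wild type. Strain and age are not given in the sources used here. Nor is it said that the 3 samples of a genotype were cultured apart or taken from different mice, so the spread behind each p-value may be technical. No array was made at normal oxygen, so the comparison asks how these genes differ without HIF-2α within low oxygen.

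Glycolysis splits glucose into pyruvate in the cytosol and yields ATP without oxygen. The pentose phosphate pathway branches from its first product to make NADPH and ribose, glycogen stores the same sugar, and the pyruvate dehydrogenase complex commits pyruvate to mitochondrial oxidation unless pyruvate dehydrogenase kinases switch it off. Endothelial cells are known for a high glycolytic rate. Low oxygen induces many of these genes through hypoxia-inducible factors, and HIF-1α is the better known of the alpha subunits in their control.

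Values are signal in intensity units, as deposited. Differences are of log2(signal + 16), knockout minus control, from limma over all 12278 genes tested, with p-values adjusted over all of them and a threshold of 0.05. A signal of 16 was taken as the floor. The arrays were alike in overall signal (median 5.52 to 5.66, with 41.5% to 42.6% of probe sets over 16). The arrays within a group were not equally close. Controls 1 and 3 had an SD of their log2 difference over genes of 0.14, and the other pairs within a group 0.31 to 0.68. The targeted gene itself had a signal of 9549 ± 90.9 in controls and 9392 ± 469 in knockouts (SD, n = 3 each). Its dimmer probe set, near the floor, gave 11.4, 10.3 and 11.4 in controls and 21.7, 18.0 and 11.5 in knockouts. Which exons were removed is not given in the sources used here, so these values do not check the genotype. Of 10 endothelial markers, 9 lay over 16 in every array (Cldn5 was under it in 1), while all measured markers of fibroblasts (6), mural cells (6) and epithelial cells (7) lay under it, as did 5 of 6 leukocyte markers. The exception was Cd68, a lysosomal protein of macrophages that other cells also make, at 3925 ± 293 in controls and 971 ± 192 in knockouts. As these are bulk samples, fewer cells of a type and less RNA per cell cannot be told apart.

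The members passed the threshold about as often as all genes tested did. Of the 27 tested members, 3 rose in the knockout arrays, 0 fell and 24 did not pass, against 13.7% of all genes tested (8.63% higher and 5.07% lower). At an unadjusted p under 0.05, limma gave 7 higher and 1 lower member, 8 of 27, against 32.4% of all genes. The 3 that rose were Pfkp, a phosphofructokinase subunit; Pdk4, a pyruvate dehydrogenase kinase; and Pygb, the brain isoform of glycogen phosphorylase. The median difference of the members was 0.01, against 0.0071 over all genes. The groups did not overlap in 9 members (33.3%), 8 with the knockouts above and 1 with them below, against 36.2% of all genes (23.4% above and 12.8% below). Of the 8, Pfkfb4 and Pdk2 were under 16 in every array, where values have no order. The shares of members were thus close to those of all genes tested, of any signal. Against genes of like signal they were lower, as given below.

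**Figure D1:**
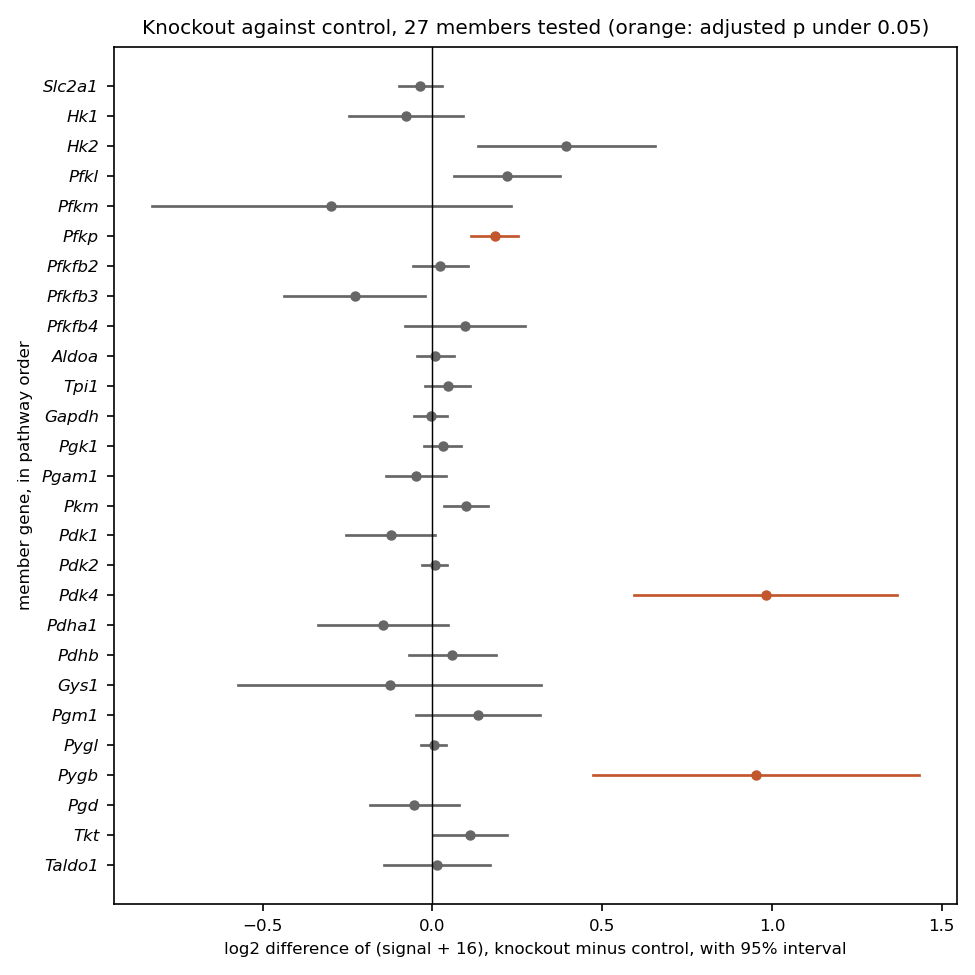
Log2 difference of signal + 16, knockout minus control (x axis), for the 27 tested members in pathway order (y axis), with the 95% interval from limma as bars, 3 arrays per group. Pfkp, Pdk4 and Pygb, in orange, passed the threshold, with differences of 0.18, 0.98 and 0.95, and most other members lie close to 0.

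The 95% intervals were narrow for many members with clear signal, though the spread behind them may be technical. Of 22 members with a mean signal of at least 1000, 16 (72.7%) had an absolute log2 difference under 0.15, against 31.2% of the 6247 genes that bright. Differences were smaller among bright probe sets in general: of the 1193 genes with a mean of at least 10000, 55.4% lay under 0.15, as did 13 of the 15 members. The 95% interval lay within -0.25 and 0.25 for 12 of the 22 members (54.5%), against 12.6% of the genes with a mean of at least 1000. It lay within -0.5 and 0.5 for 18 members (81.8%), against 39.2%. Of the 22 members 15 had a mean of at least 10000, against 1193 of the 6247 genes, so these interval shares are set against dimmer genes. Interval shares among genes with a mean of at least 10000 are not given here. Of the 22 members, 2 were called (Pfkp and Pygb), against 17.9% of genes with a mean of at least 1000, and the groups did not overlap in 6, against 43.8%. At a mean of at least 10000, 1 of 15 members was called, against 16.7% of genes. The groups did not overlap in 3 of these 15 (20%), against 43.8%.

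Of the 2 glucose transporters among the members, 1 was tested, and its difference did not pass. Uptake itself was not measured. Slc2a1 encodes GLUT1, the main glucose transporter of endothelium. It gave 32338, 32720.0 and 31774 in controls 1 to 3 and 30759, 31942 and 31774 in knockouts 1 to 3. The groups overlapped, and the difference of -0.04 ± 0.02 (SE; 95% interval -0.10 to 0.03; limma adjusted p = 0.371) was within the spread. Its 2 other probe sets differed by -0.0094 and -0.0091. Slc2a3, the GLUT3 transporter, was under 16 in every array, with 4.16, 4.15 and 4.19 in controls and 7.03, 4.39 and 5.34 in knockouts for the brightest of its 4 probe sets.

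Hexokinases trap glucose as glucose 6-phosphate. Hk1, the widely expressed isoform, gave 12236, 12364 and 12675 in controls and 11672, 12802 and 10927 in knockouts. These values overlapped (difference -0.08 ± 0.06, limma adjusted p = 0.468). Hk2, the inducible isoform, gave 5552, 6657 and 6612 in controls and 7831, 8977 and 7908 in knockouts. Every knockout array lay above every control array for Hk2, with a difference of 0.39 ± 0.10 (95% interval 0.13 to 0.65), and limma's adjusted p of 0.0672 missed the threshold. The difference between the 2 isoforms was not tested.

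Phosphofructokinase-1 makes fructose 1,6-bisphosphate in the committed step of glycolysis, and assembles from liver, muscle and platelet subunits. Pfkp, the platelet-type subunit, gave 13626, 13979 and 13791 in controls and 15989, 15816 and 15218 in knockouts. The groups did not overlap, and the rise of 0.18 ± 0.03 (95% interval 0.11 to 0.25, limma adjusted p = 0.021) was small but well above the spread within groups. A dimmer Pfkp probe set gave 699, 754 and 569 in controls and 1259, 1354 and 931 in knockouts. This was a larger difference of 0.79, with an adjusted p of 0.0804 over the 27022 probe sets tested with limma, where 7.65% were called. Pfkl, the liver-type subunit, gave 20009, 21929 and 20377 in controls and 25407, 24489 and 22715 in knockouts. It also had no overlap between the groups, and its difference of 0.22 ± 0.06 (limma adjusted p = 0.0779) did not pass. Its 2 dimmer probe sets differed by 0.24, without overlap, and by 0.36, where knockout 3 lay below all controls. Pfkm, the muscle-type subunit, ranged from 1401 to 2619 over the 6 arrays, with a difference of -0.30 ± 0.20 (95% interval -0.83 to 0.23, limma adjusted p = 0.376).

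The bifunctional PFKFB enzymes set the level of fructose 2,6-bisphosphate, the strongest activator of phosphofructokinase-1. Pfkfb3, the isoform known for driving endothelial glycolysis and vessel sprouting, was the one member whose knockout arrays all lay below the controls. It gave 4907, 5503 and 5818 in controls and 4847, 4615 and 4356 in knockouts. Control 1 and knockout 1 differed by little, and the difference of -0.23 ± 0.08 (limma adjusted p = 0.13) did not pass. Pfkfb2 stood at the edge of the floor (15.8 to 17.9 over the 6 arrays). Pfkfb4, a known target of hypoxia-inducible factors, was under 16 throughout, with 4.20, 4.56 and 4.09 in controls and 4.73, 7.94 and 4.58 in knockouts.

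From aldolase to pyruvate kinase, 6 members were tested and none passed, against 13.7% of all genes tested. Aldoa, which cleaves fructose 1,6-bisphosphate, gave 47819.5, 49207 and 48264 in controls and 49083, 49181 and 47922 in knockouts. Its difference was 0.0089 ± 0.02 (95% interval -0.05 to 0.06), and its 4 other probe sets differed by 0.02 to 0.06. Gapdh, the glyceraldehyde 3-phosphate dehydrogenase, gave 45720.4, 45541 and 45553 in controls and 46114, 44639 and 45602 in knockouts. These groups overlapped, with a difference of -0.005 ± 0.02 (95% interval -0.05 to 0.04). The value is from the array's own Gapdh control probe sets, the only ones annotated to Gapdh alone. Of these 3, the one for the 5' end differed by -0.0044 and the one for the 3' end by -0.02.

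Tpi1 interconverts the triose phosphates, Pgk1 makes ATP from 1,3-bisphosphoglycerate, and Pgam1 shifts the phosphate that remains on the product. In this order, they ranged over the 6 arrays from 32856 to 34986, 36907 to 38592 and 30433 to 32813. They differed by 0.05, 0.03 and -0.05, and the groups overlapped in each. Pkm, the pyruvate kinase of most tissues, gave 30034, 30829 and 29687 in controls and 31817, 32930.5 and 32225 in knockouts, without overlap, and its difference of 0.10 ± 0.02 (95% interval 0.04 to 0.16, limma adjusted p = 0.0642) missed the threshold. Its splice forms were not analysed here. Aldoc, the aldolase isoform known from brain, gave 4.66, 4.67 and 4.70 in controls and 4.71, 4.73 and 4.68 in knockouts. Eno2, the neuronal enolase, gave 4.47, 4.46 and 4.50 and 4.48, 4.50 and 4.47. Both were under 16 in every array.

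**Figure D2:**
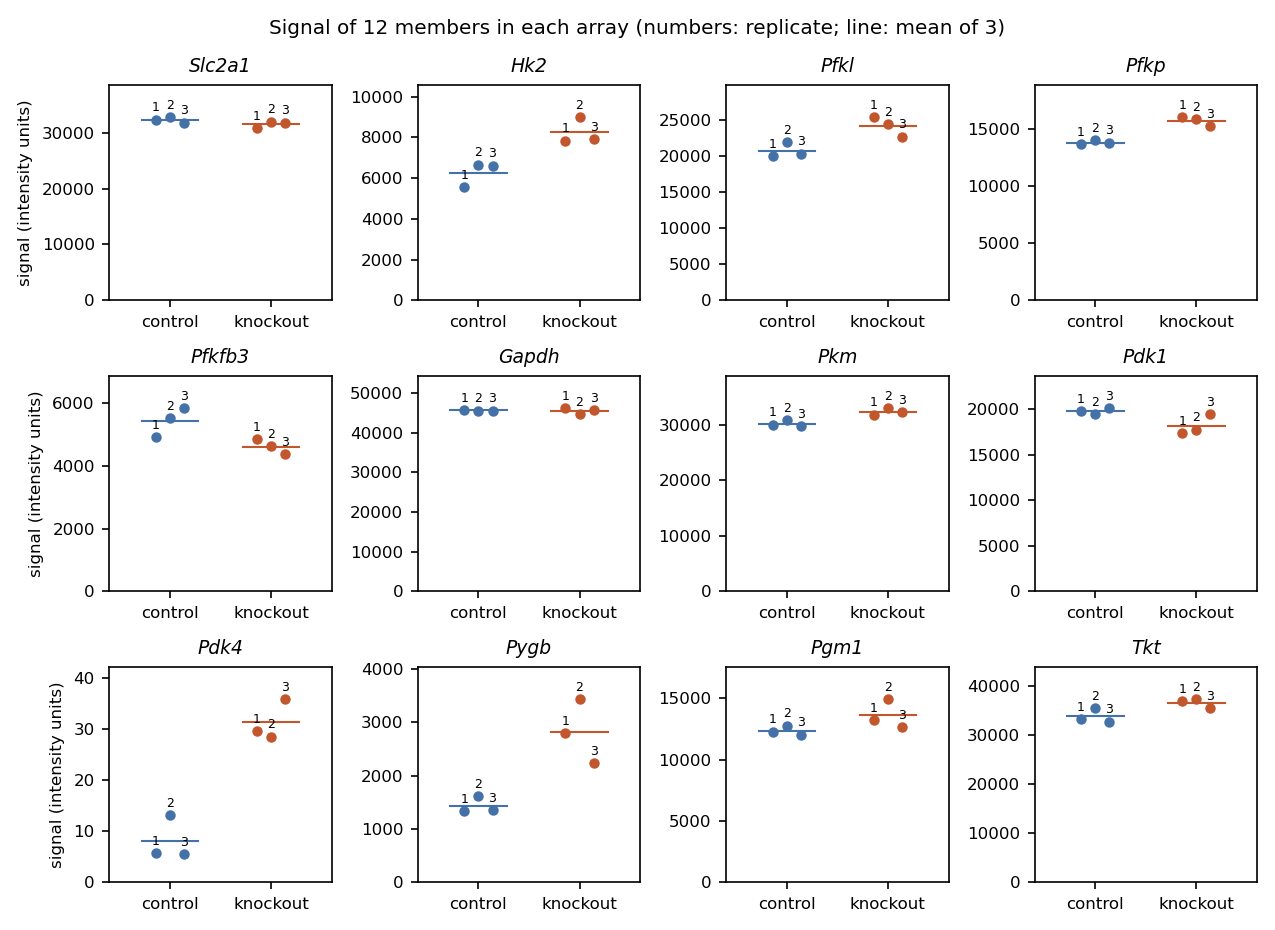
Signal in intensity units (y axes, each from 0) of 12 members in the 3 control and 3 knockout arrays. Numbers are replicates and lines are group means. The groups overlap for Slc2a1 and Gapdh, and Pygb and Pdk4 are higher in all 3 knockout arrays. Of the plotted genes without overlap, knockout 3 lies closest to the controls for Pygb, Pfkl and Pfkp, but not for Hk2, Pfkfb3, Pkm and Pdk4.

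Entry of pyruvate into mitochondria is set by the pyruvate dehydrogenase complex and by the kinases that inactivate it. Pdk1, a well-known target of HIF-1α, gave 19842, 19451 and 20109 in controls and 17382, 17766 and 19479 in knockouts. Knockouts 1 and 2 were below all controls and knockout 3 overlapped them, with a difference of -0.12 ± 0.05 (95% interval -0.25 to 0.0091, limma adjusted p = 0.176). All 4 Pdk1 probe sets were lower on average in knockouts, with differences of -0.12, -0.12, -0.55 and -0.57 from the brightest to the dimmest, and none passed over probe sets. For the dimmest, the values were 3098, 2358 and 3561 in controls and 1804, 1796 and 2431 in knockouts. Without knockout 3, the Pdk1 difference was -0.17 and passed (limma adjusted p = 0.028), in a fit where 3006 of 12278 genes passed. Pdk1 did not pass with any other single array left out.

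Pdk4, the isoform induced by fasting and lipid use, rose from the floor to a low signal. It gave 5.72, 13.2 and 5.51 in controls, all under 16, and 29.6, 28.5 and 35.7 in knockouts, all above it. With controls counted at the floor of 16, the knockout mean was 1.96-fold higher. The fitted difference, a separate measure taken from log2(signal + 16) of all arrays, was 0.98 ± 0.15 (limma adjusted p = 0.0238). The knockout signal stayed low on the scale of these arrays, and the fitted difference depends on the pseudocount. It was 1.91 with a pseudocount of 1 and 0.40 with 64. Pdk2, an isoform found in most tissues, gave 5.22, 5.23 and 5.05 in controls and 5.24, 5.30 and 5.23 in knockouts. Pdk3 gave 4.40, 4.39 and 4.44 in controls and 4.56, 4.45 and 4.63 in knockouts. Both kinases were under 16 throughout.

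Pdha1 and Pdhb encode the subunits of the pyruvate dehydrogenase component that decarboxylates pyruvate. Pdhb gave 8284, 8569.6 and 8423 in controls and 8537, 9389 and 8437 in knockouts, which overlapped (difference 0.06 ± 0.05, limma adjusted p = 0.466). The 2 probe sets of Pdha1 pointed in opposite directions. The brighter gave 5859, 5572 and 5749 in controls and 5126, 4759 and 5691 in knockouts, a difference of -0.14. The dimmer gave 1304, 1639 and 1324 in controls and 2030.3, 2095 and 1829 in knockouts, a difference of 0.48 without overlap. Neither passed over probe sets (limma adjusted p = 0.291 and 0.0776), so no direction can be given for Pdha1.

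The glycogen genes held the largest difference among the 22 members with a mean signal of at least 1000. Pygb, a phosphorylase that releases glucose 1-phosphate from glycogen, gave 1329, 1616 and 1354 in controls and 2795, 3426 and 2238 in knockouts. The lowest knockout array was above the highest control, and the group means of 1433 ± 159 and 2820.0 ± 594 (SD, n = 3 each) gave a ratio of 1.97, with a log2 difference of 0.95 ± 0.18 (95% interval 0.47 to 1.43, limma adjusted p = 0.0391). Pygb has 1 probe set, so this rise has no second measure. Pygl, the liver phosphorylase, gave 5.21, 5.18 and 5.27 in controls and 5.27, 5.34 and 5.24 in knockouts, all under 16. Pgm1, which links glucose 1-phosphate to glucose 6-phosphate, gave 12285, 12766 and 12028 in controls and 13225, 14902 and 12668 in knockouts. It overlapped between the groups (difference 0.13 ± 0.07, limma adjusted p = 0.265). A far dimmer Pgm1 probe set pointed the other way, at -0.56 with overlap (limma adjusted p = 0.398 over probe sets). Gys1, the glycogen synthase, ranged from 1391 to 2059.6 and differed by -0.13 ± 0.17 (95% interval -0.57 to 0.32), so that neither direction can be given.

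None of the 3 measured pentose phosphate members passed, against 13.7% of all genes tested. Tkt, a transketolase of the non-oxidative branch, gave 33249, 35513 and 32735 in controls and 36861, 37225 and 35400.5 in knockouts. Knockouts were higher on average with a slight overlap, at a difference of 0.11 ± 0.04 (95% interval 0.0012 to 0.22, limma adjusted p = 0.151). A dimmer Tkt probe set read 15083, 17110.2 and 14912 in controls and 19532, 19765 and 17437 in knockouts, without overlap, and differed by 0.27 (limma adjusted p = 0.126 over probe sets). Pgd, which makes NADPH in the oxidative branch, and Taldo1, the transaldolase, ranged from 17833 to 19786 and from 16306 to 18512. They differed by -0.05 ± 0.05 and 0.01 ± 0.06, and the groups overlapped in both.

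Where a member had several probe sets, the dimmer ones often showed the larger difference. Of 13 members with at least 2 probe sets of a mean signal of at least 64, the dimmest had the larger absolute difference in 9 (69.2%), against 65.8% of 4115 genes. The sign was the same in 11 (84.6%), against 83.9%. The 2 that changed sign were Pdha1 and Gys1. At the level of probe sets, 2 of 54 member probe sets passed, both higher (those of Pfkp and Pdk4), against 7.65% of all probe sets. Probe sets shared with other genes were not used. These were 3 annotated to Gapdh with 1 or more other genes and 1 annotated to Hk1 with 5 other genes, among them Rpl17, and their log2 differences were between -0.02 and 0.21.

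**Figure D3:**
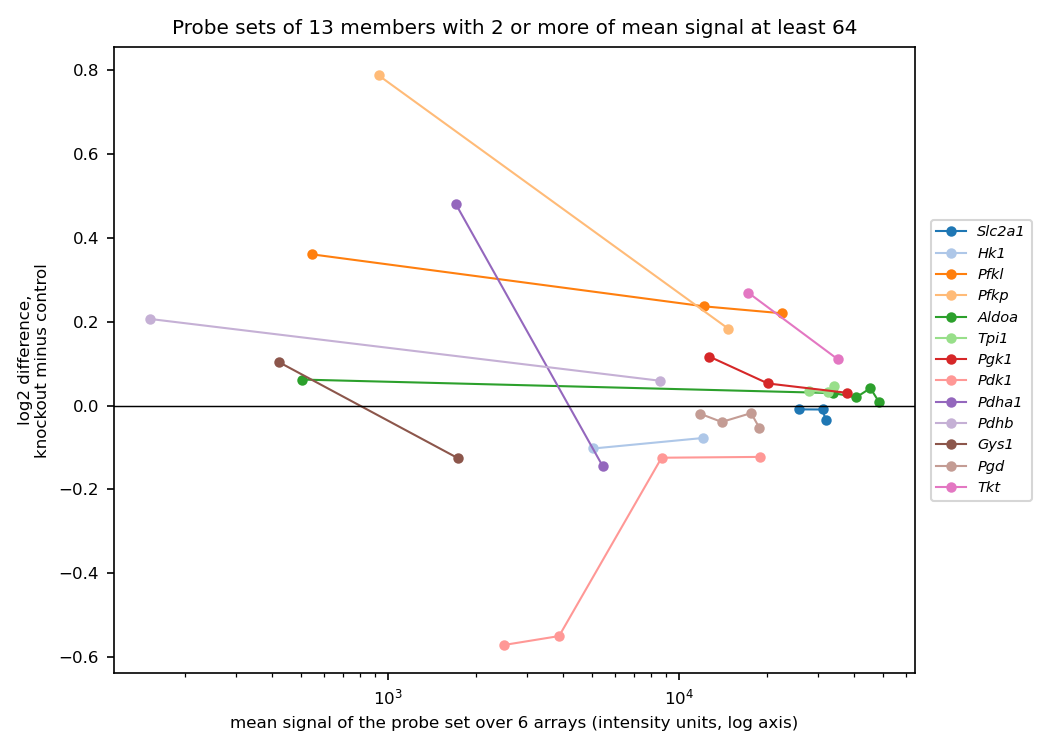
Log2 difference, knockout minus control (y axis), against the mean signal over 6 arrays (x axis, log scale) for the probe sets of 13 members with 2 or more of mean signal at least 64. Lines join the probe sets of a gene. Those of Pdk1 lie below 0, those of Pfkp and Pfkl above it, and the 2 of Pdha1 lie on opposite sides.

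The calls depended on which arrays were kept. Pfkp, Pdk4 and Pygb were higher in 3 of 3 knockout arrays than in every control. Their differences therefore had to stay above 0 with each array left out in turn. All 3 kept their calls without knockout 3, and Pdk4 also without control 2, and none did without any of the other 4 arrays. For Pfkp limma's adjusted p was 0.103, 0.0552 and 0.0995 on leaving out controls 1, 2 and 3 in turn and 0.0851, 0.0585 and 0.0184 on leaving out knockouts 1, 2 and 3. For Pdk4 it was 0.101, 0.02 and 0.0981 on leaving out controls 1, 2 and 3 in turn and 0.09, 0.061 and 0.0381 on leaving out knockouts 1, 2 and 3. For Pygb it was 0.148, 0.0707 and 0.146 on leaving out controls 1, 2 and 3 in turn and 0.135, 0.0671 and 0.0244 on leaving out knockouts 1, 2 and 3. The number of members called was accordingly 1 when control 2 was left out, 6 when knockout 3 was, and 0 for each of the other 4 arrays. The number called of all 12278 genes tested moved likewise, to 906 without control 2, 3006 without knockout 3 and 207 to 974 without each of the others. Those added without knockout 3 were Pfkl (0.27), Pdk1 (-0.17) and Pdha1 (-0.21). The Pdha1 value is of its brighter probe set, and the dimmer one pointed the other way (0.48 over all 6 arrays). The spike-in level, the mean log2 signal of the bioB and bioC controls, ran from 10.6 to 10.9 in controls and from 10.8 to 11.1 in knockouts. Fitted with this level as a covariate, 0 members and 445 of all 12278 genes passed in limma, and the Pygb difference was 0.54. At an unadjusted p under 0.05, 3 members were higher and 3 lower in that fit, where the share of all genes is not given here. Without a filter on low values the adjusted p of Pygb in limma was 0.0738, and that of Pfkp was 0.138 with the lowest 60% of probe sets left out, 0.0522 with 75th percentile scaling and 0.0504 with its probe sets averaged, where its difference was 0.32. The summed signal of the 10 endothelial markers ran from 113163 to 120834 in controls and from 90500.5 to 99763 in knockouts, and 4 of the 10 (Tek, Tie1, Erg and Pecam1) fell. Their part in the differences of the metabolic genes was not tested.

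The promoters of several members are shown because HIF alpha subunits with ARNT bind the core ACGTG or GCGTG, and the members divide into some that rose and many that did not. Sequences are RefSeq's, of build GRCm38.p6, 250 bases up to the start site, read 5′ to 3′ on the gene's strand. Capitals mark ACGTG or GCGTG on either strand.
Pfkp, chr13:6648772-6649021, minus strand: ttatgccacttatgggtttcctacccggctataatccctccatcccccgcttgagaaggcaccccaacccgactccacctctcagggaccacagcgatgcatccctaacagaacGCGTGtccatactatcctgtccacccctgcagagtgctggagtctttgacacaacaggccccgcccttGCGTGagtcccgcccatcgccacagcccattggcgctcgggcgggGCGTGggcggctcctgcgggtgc
Pdk4, chr6:5496279-5496528, minus strand: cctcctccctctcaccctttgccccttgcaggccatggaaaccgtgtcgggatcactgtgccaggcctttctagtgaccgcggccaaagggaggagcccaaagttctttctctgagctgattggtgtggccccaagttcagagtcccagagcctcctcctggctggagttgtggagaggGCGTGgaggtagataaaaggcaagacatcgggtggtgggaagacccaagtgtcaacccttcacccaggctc
Pygb, chr2:150786546-150786795, plus strand: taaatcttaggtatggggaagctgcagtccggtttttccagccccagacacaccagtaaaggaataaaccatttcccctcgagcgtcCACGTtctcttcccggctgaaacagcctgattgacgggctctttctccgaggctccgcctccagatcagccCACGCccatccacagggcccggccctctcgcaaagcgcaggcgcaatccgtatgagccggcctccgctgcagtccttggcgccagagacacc
Hk2, chr6:82774455-82774704, minus strand: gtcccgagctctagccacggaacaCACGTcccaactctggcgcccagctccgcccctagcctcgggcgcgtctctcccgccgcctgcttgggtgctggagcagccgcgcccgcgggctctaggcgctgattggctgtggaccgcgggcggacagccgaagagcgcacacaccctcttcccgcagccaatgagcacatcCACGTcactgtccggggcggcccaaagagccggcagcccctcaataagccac
Slc2a1, chr4:119108495-119108744, plus strand: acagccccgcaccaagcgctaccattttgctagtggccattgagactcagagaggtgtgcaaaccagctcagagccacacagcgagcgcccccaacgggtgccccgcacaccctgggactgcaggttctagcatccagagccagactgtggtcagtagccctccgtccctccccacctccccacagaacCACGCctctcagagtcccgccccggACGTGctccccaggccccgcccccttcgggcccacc
Pfkp has 3 matches, Pdk4 has 1, and Pygb, Hk2 and Slc2a1 have 2 each. Promoters of 33 of the 34 genes were found, 49 in all since some genes have several start sites, whose windows can overlap. Of these 49, 38 (77.6%) held a match on either strand, against 38.6% of 32851 mouse promoters in the same window. ACGTG was in 38.8% and GCGTG in 57.1%, against 16.6% and 28.2%. No base composition was matched in this comparison, and a match is a description of letters, not a site. Whether the number of matches goes with the difference was not tested.

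Of 70 further genes of these pathways, 65 had a probe set and 50 were tested, of which 9 rose, 2 fell and 39 did not pass. This was 11 of 50, against 13.7% of all genes tested, with a median difference of 0.0072 against 0.0071. The groups did not overlap in 24 of the 50, against 36.2% of all genes.

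Of 11 further genes of glycolysis and gluconeogenesis tested, 3 rose and 1 fell, against 8.63% and 5.07% of all genes tested. Gpd1l, a homologue of the cytosolic glycerol 3-phosphate dehydrogenase, gave 1584, 1625 and 1377 in controls and 3650.0, 4166 and 3009 in knockouts, a rise of 1.22 ± 0.14 (limma adjusted p = 0.0145). Adpgk, an ADP-dependent glucokinase, gave 2787, 3222 and 2688 in controls and 5502, 5776 and 4461 in knockouts, a rise of 0.85 ± 0.13. Tigar, a fructose bisphosphatase that opposes glycolysis, rose by 0.28 ± 0.06. In each of the 3, all knockout arrays were above all controls. Galm, which interconverts the anomers of hexoses, gave 4712, 4865 and 4789 in controls and 3126, 3081 and 2487 in knockouts. It fell by 0.73 ± 0.10 (limma adjusted p = 0.0195). Slc2a9, a urate transporter of the GLUT family and 1 of 4 further transporters tested, fell by 0.76 ± 0.16 (limma adjusted p = 0.0472), and none of the 4 rose.

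Of 9 further pentose phosphate genes tested, 2 rose and none fell, against 8.63% and 5.07% of all genes tested. Prps1, which makes the ribose donor of nucleotide synthesis, gave 2126, 2047 and 1949 in controls and 3426, 3162 and 3509 in knockouts. This was a rise of 0.72 ± 0.06 (limma adjusted p = 0.00625), with little spread within either group. Rpia, the ribose 5-phosphate isomerase, gave 2235, 2541 and 2143 in controls and 4189, 5022 and 3869.7 in knockouts, a rise of 0.91 ± 0.12. H6pd, Pgls, Rpe and Prps2 were among the 7 that did not pass.

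Of 8 further genes of pyruvate entry 2 rose, and of 14 further glycogen genes 1 did, against 8.63% of all genes tested. Dlat, the acetyltransferase of the pyruvate dehydrogenase complex, gave 1223, 1365 and 1177 in controls and 1891, 1978 and 1667 in knockouts, a rise of 0.55 ± 0.09. Pdp2, a phosphatase that switches the complex on, gave 118, 130.4 and 98.7 in controls and 213, 249.8 and 178 in knockouts, a rise of 0.80 ± 0.16. Phka2, a regulatory subunit of the kinase that activates glycogen phosphorylase, rose by 0.71 ± 0.09. At the lactate step 1 of 4 rose, against the same 8.63% of all genes tested. Slc16a3, the exporter MCT4, gave 18.0, 20.1 and 12.5 in controls and 1884, 1759 and 1278 in knockouts, a rise of 5.64 ± 0.18. As its controls lay near the floor, with control 3 under it, the size depends on the pseudocount, at 6.53 with 1 and 4.38 with 64. Ldha, the lactate dehydrogenase subunit, differed by 0.04 ± 0.02 (limma adjusted p = 0.209).

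**Figure D4:**
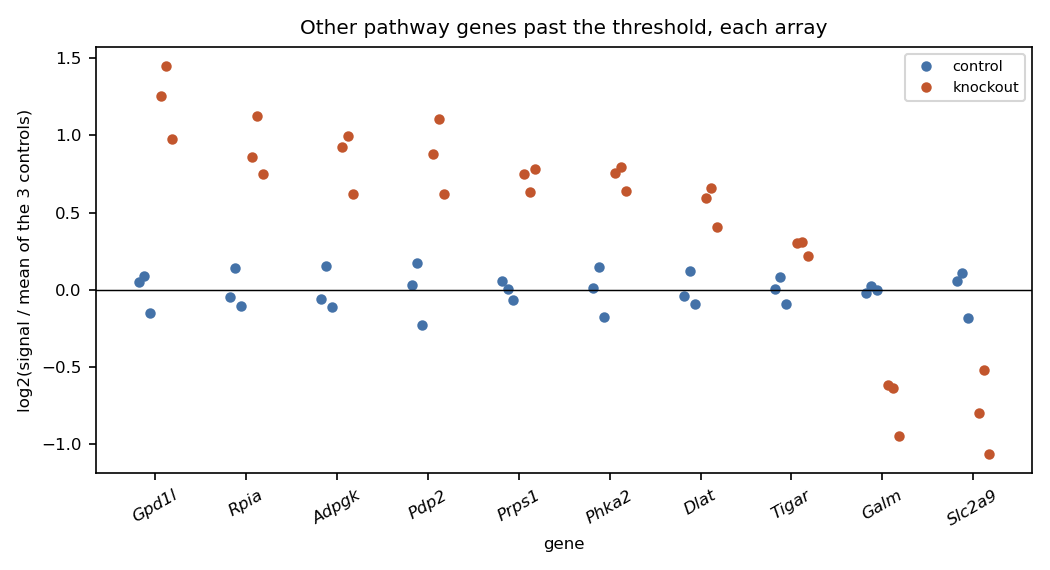
Log2 of the signal over the mean of the 3 controls (y axis) in each array for 10 further pathway genes that passed the threshold (x axis). Slc16a3, with controls near the floor, is left out. All 3 knockout arrays lie above the controls for the 8 genes that rose and below them for Galm and Slc2a9.

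Of these 11 genes, Slc16a3 and Prps1 kept their calls whichever array was left out. The number of the 50 called was 2 when control 1, control 3 or knockout 1 was left out, 8 for control 2, 6 for knockout 2 and 17 for knockout 3. Of all 12278 genes tested, the number called in these fits was 207, 212, 315, 906, 974 and 3006, in the same order. The number of the 50 also changed with the covariate. It was 4 when the spike-in level was fitted, among them Galm, Slc16a3 and Prps1.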

How the data were processed

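RNA of each sample was amplified, marked with biotin and read on 1 Affymetrix array, per the labels' protocols. The deposited table gives linear intensity values, with 1 column for each array. MAS5 and GCRMA are named in the submitters' processing notes, without version or role. Quantiles were nearly equal between arrays, so the values were not normalized again.

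Of 45101 probe sets (64 array controls), 34958 had 1 gene in the platform annotation, 932 had several and 9211 were unnamed here. Of those with 1 gene, 34754 matched a current gene by number. A filter on the mean over all arrays dropped the dimmest 40%, leaving 27022, and each gene was read from its brightest probe set. Array controls annotated to a gene, as for Gapdh, were kept at the gene level. Groups, from the sample titles, were compared on log2(intensity + 16) with limma 3.58.1 in R 4.3.3 (lmFit, eBayes, two-sided, Benjamini-Hochberg over all genes), and the fit was tested on simulated data. Figures used matplotlib 3.10.9. The number of arrays limits the precision.

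Values in every array are given for members past the threshold, those without overlap and a log2 difference of at least 0.25, those under 16 in a group, and the brightest of each role. Pkm, Pdk1, Pdha1 and dimmer probe sets were added after their values were seen. Further pathway genes are named where they passed, with a few others as examples. Members and lists were chosen with earlier results of these data known. Alternatives were other scalings, pseudocounts, filters, eBayes settings, array weights, means of probe sets, the replicate number as a block, the spike-in level as a covariate, and arrays left out or averaged.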

Additional observations from a re-analysis of the deposited data

How the results depend on the processing

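Pfkp, Pdk4 and Pygb were higher in knockouts under every alternative in which they were tested, and 0 members were called lower in the main comparison. This direction was fixed where arrays were left out or averaged or the pseudocount changed, as the groups of these 3 genes did not overlap. The 3 calls among members became 2 with 75th percentile scaling or means of probe sets (Pfkp was lost) and without a filter (Pygb was lost), 1 with the lowest 60% of probe sets left out or with a mean signal of at least 64 (Pdk4 is then untested and Pfkp misses the threshold), 0 with the spike-in covariate or with controls 1 and 3 averaged, 6 without both control 2 and knockout 3 (5 higher, 1 lower) and 16 with array weights (10 higher, 6 lower), whose estimation stopped before convergence. Leaving out 1 array gave 0 to 6 members, 0 to 4 of them higher and 0 to 2 lower, and in those settings 5 to 7 were higher and 0 to 3 lower at an unadjusted p under 0.05 in limma (5 and 1 with controls 1 and 3 averaged, 3 and 3 with the spike-in covariate). The share of all genes at an unadjusted p under 0.05 was 32.4% in the main fit and is not given for these settings, so these counts cannot be set against it. Member probe sets called went from 2 to 1 with 75th percentile scaling, 0 with the spike-in covariate or controls 1 and 3 averaged, 13 without both control 2 and knockout 3, 30 with array weights, and 0 to 6 with 1 array left out. Further pathway genes called went from 11 to 7 without a filter, 4 with the spike-in covariate, 2 with controls 1 and 3 averaged, 23 without both control 2 and knockout 3, 36 with array weights, and 2 to 17 with 1 array left out. All genes called went from 1683 to 883 without a filter, 445 with the spike-in covariate, 194 with controls 1 and 3 averaged, 4644 without both control 2 and knockout 3, 8540 with array weights, and 207 to 3006 with 1 array left out. The cause of these changes was not tested.

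The median difference was above 0 under all alternatives for the members and likewise for all genes, whose median was the higher, at 0.05 against 0.01, under both stricter filters. With the replicate number as a block, 4 members passed in place of 3 (Hk2 was added, adjusted p = 0.0428), 16 further pathway genes and 2995 genes in all. Deviations of same-numbered arrays correlated at -0.47, 0.84 and 0.80, so not every pair deviated together and pairing was not assumed. A probe set mean was not run at the level of probe sets, where it has no meaning. Signals under 16 in both groups limit Slc2a3, Pfkfb4, Aldoc, Eno2, Pdk2, Pdk3 and Pygl.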
